A study of Mus musculus with 3 samples.

Results

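The report describes 10 genes of canonical Wnt signalling in the posterior frontal suture, the midline suture between the frontal bones of the mouse skull. The members are the 4 Tcf/Lef transcription factors Tcf7, Lef1, Tcf7l1 and Tcf7l2, their coactivator Ctnnb1, the scaffold proteins Axin1 and Axin2, and the inhibitors Nkd1, Nkd2 and Apcdd1. They were taken by symbol, as every non-control probe that the array files name for them, which gave 17 of 55680 probes and 10 of 32053 named genes. Of these genes, 6 have several probes and 4 have 1 probe. No measured value enters that rule, but the members were chosen with earlier results of these data known.

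Expression was measured on 3 one-colour Agilent arrays with probes 60 bases long. Total RNA came from posterior frontal sutures of C57BL/6 mice in 3 groups. They were Runx2+/+ (wild type) at postnatal day 5 (P5), Runx2+/+ at postnatal day 7 (P7) and Runx2+/- at P7, and the labels name no treatment. Runx2 is the transcription factor needed for osteoblast differentiation. The labels state neither which part of Runx2 is deleted nor how many mice were pooled for an array. Each group has 1 array, so no difference here has a replicate check and none was tested.

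In canonical Wnt signalling a destruction complex built on Axin and Apc marks β-catenin, the product of Ctnnb1, for degradation. Wnt binding to its receptors disables that complex through Dishevelled, and β-catenin then enters the nucleus and joins Tcf/Lef factors on DNA. Axin2, Nkd1, Lef1, Tcf7 and Apcdd1 are themselves known targets of the pathway in many tissues, and several of them feed back to restrain it. Wnt signalling is known to act on osteoblast differentiation and on the fate of suture cells.

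The sequences shown first are of the probes and promoters that the results return to. The Tcf7l2 probe has that gene's highest mean level over the arrays, through its P7 wild-type signal alone, and differs from the neighbouring probe in the direction of its age difference. The Axin2 probe is the brighter of a pair that gave no signal well above background. Both are as the array files give them, in capitals because each base is meant to pair with its target, and all 3 reading frames of each are open.
Tcf7l2 probe 2, chromosome 19, 55994029 to 55994088, plus strand, mm9: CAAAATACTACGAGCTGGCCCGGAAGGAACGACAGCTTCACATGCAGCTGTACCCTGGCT
Axin2 probe 1, chromosome 11, 108803927 to 108803986, plus strand, mm9: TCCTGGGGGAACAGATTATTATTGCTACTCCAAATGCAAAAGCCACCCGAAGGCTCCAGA

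Promoter windows of 250 bases before the transcript start were taken from RefSeq on GRCm38.p6 and matched 8 members with 14 windows, some of which overlap. Axin1 and Apcdd1 were not matched. A Tcf/Lef motif, CTTTGA on either strand, was found in 1 of the 14 windows, against 13.8% of 32851 windows over all genes. That window precedes the most downstream of the 4 Lef1 starts and holds the motif at 180 and 120 bases before the start. A Runx motif, TGTGGT or TGCGGT on either strand, was found in 1 of the 14 windows, against 18.6% over all genes. It lies 196 bases before the Nkd2 start. The 2 windows are shown because Tcf/Lef factors and Runx2 are the factors in question, with the matches in capitals. A match describes these letters and is not a binding site.
Lef1, chr3:131156044-131156293, plus strand, GRCm38.p6: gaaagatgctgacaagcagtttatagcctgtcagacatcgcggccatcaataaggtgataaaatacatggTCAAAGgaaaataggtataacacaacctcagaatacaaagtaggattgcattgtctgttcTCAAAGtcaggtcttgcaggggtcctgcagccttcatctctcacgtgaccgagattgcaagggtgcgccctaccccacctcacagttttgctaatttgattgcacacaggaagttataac
Nkd2, chr13:73847632-73847881, minus strand, GRCm38.p6: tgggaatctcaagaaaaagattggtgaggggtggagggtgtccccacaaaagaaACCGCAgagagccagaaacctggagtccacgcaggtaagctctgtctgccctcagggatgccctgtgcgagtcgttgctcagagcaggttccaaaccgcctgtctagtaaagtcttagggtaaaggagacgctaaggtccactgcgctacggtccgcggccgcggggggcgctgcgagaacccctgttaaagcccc

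The arrays differed in brightness. The 75th percentile of the signal was 52.1 intensity units at P5, 22.8 at P7 in wild type and 124 in Runx2+/-, and in that order 40.1%, 29.2% and 47.3% of probes were well above background. A level is therefore given as log2 of the intensity minus the array's 75th percentile. The dimmest signal well above background lay at -2.12, -0.78 and -3.25 on that scale. The SD of a difference between arrays from repeated spots was 0.25 for age, 0.22 for genotype and 0.20 for the Runx2+/- against the P5 array. It covers the spots of an array and not mice or dissections. Differences also varied with brightness among probes measured on both arrays of a pair. In the dimmest of 8 equal groups the median difference was 0.44 for age, -0.70 for genotype and -0.68 for Runx2+/- against P5. In the brighter groups it lay between -0.18 and 0.29. The part of this shift in the member differences was not tested. Runx2 itself, by its brightest probe, was at 2.38 at P5, 1.46 at P7 and 1.08 in Runx2+/-. The genotype difference of that probe, -0.38, turned to 0.21 under another background correction (normexp) followed by the same scaling. That setting also moved the median of all genes by 0.57 for genotype and by -0.34 for age. Another Runx2 probe read 23.9, 13.4 (not well above background) and 28.9 intensity units. The remaining probe read 8.64, 4.07 and 47.8, well above background in Runx2+/- alone.

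Of the 17 member probes, 8 were well above background on all 3 arrays and both Axin2 probes on none. Well above background were 13 member probes at P5, 9 at P7 in wild type and 13 in Runx2+/-. Taking each gene by its brightest probe, 9, 7 and 9 of the 10 genes were measured on these arrays. Lef1 and Apcdd1 were the genes lost on the dim P7 wild-type array alone. In bulk RNA, fewer cells of a type and less RNA per cell cannot be told apart, which holds for every value here.

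**Figure D1:**
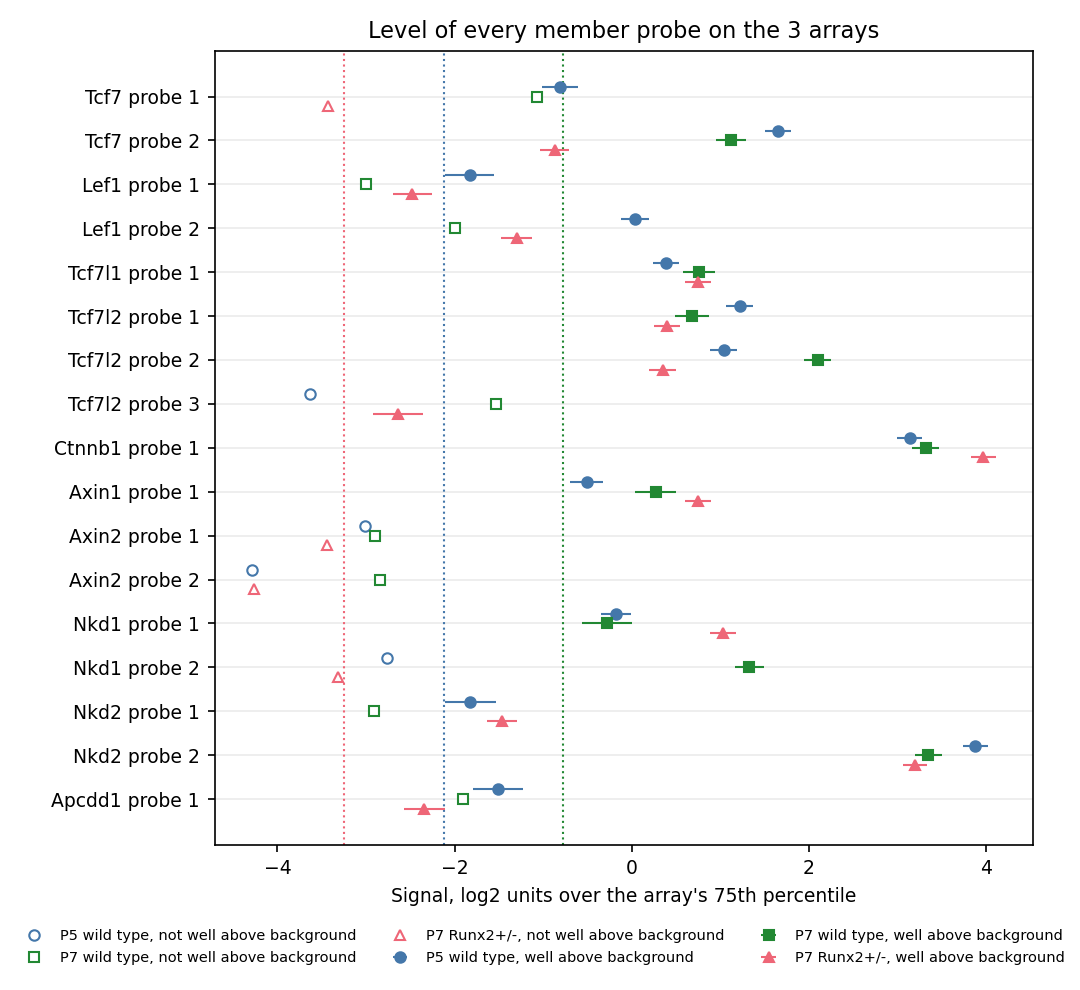
Level of each of the 17 member probes on the arrays of wild type at P5 (circles), wild type at P7 (squares) and Runx2+/- at P7 (triangles), in log2 units over each array's 75th percentile, with the scanner software's error as bars and open symbols where the probe was not well above background. Dotted lines are the lowest signal well above background on each array. Tcf7 probe 2 lies lowest on the Runx2+/- array, and both Axin2 probes are open on all 3.

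Tcf7, a factor of lymphocytes and of mesenchymal progenitors, was lower on the Runx2+/- array than on either wild-type array. The brighter probe (minus strand of chromosome 11, 52066114 to 52066173, mm9), 2170 bases into the transcript, read 163 ± 16.5 intensity units at P5, 49.4 ± 5.82 at P7 and 67.9 ± 7.41 in Runx2+/-, where ± is the scanner software's error of 1 array. Scaled to each array these are levels of 1.65, 1.12 and -0.87. The wild-type levels lie close together and the Runx2+/- level lies apart from both. P7 was 0.53 ± 0.22 log2 units (1.44-fold) below P5, and Runx2+/- was 1.99 ± 0.23 (3.97-fold) below P7 wild type. Both differences are larger than the spot SD, and the age difference is under 2-fold. Over 11 other settings of the processing the genotype difference ran from -2.17 to -0.95, negative in all 10 settings that gave it an order. The other Tcf7 probe, at 1546 bases, was well above background at P5 with 29.7 ± 4.02 and not on the P7 arrays, with 10.8 and 11.5. It gave no order for age or genotype, and a Runx2+/- level at least 5.42-fold below P5. Both Tcf7 probes were therefore lower on the Runx2+/- array than at P5, and genotype at P7 rests on 1 probe.

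Lef1, the factor that with Tcf7 often carries activation of Wnt targets, was highest on the P5 array among the arrays that measured it. Its brightest probe (chromosome 3, 130926200 to 130926259, plus strand, mm9) read 53.4 ± 6.06 at P5, 5.70 at P7, which was not well above background, and 50.4 ± 6.02 in Runx2+/-. The levels at P5 and in Runx2+/- were 0.04 and -1.30. P7 wild type was at least 1.75-fold below P5. No order could be given between the P7 arrays, because the Runx2+/- level lies below the lowest signal that the P7 wild-type array measures. Its second probe, to which the files give a span of 18162 bases from 130907851 to 130926012, read 14.7 at P5 and 22.2 in Runx2+/-. At P7 it was 2.85, not well above background. Runx2+/- was 1.34 ± 0.24 below P5 by the first probe and 0.65 ± 0.36 below by the second. The second lies in the dimmest brightness group of that comparison, whose median difference was -0.68.

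Tcf7l1, mostly a repressor of Wnt targets, was at nearly the same level on the 3 arrays. Its 1 probe (chromosome 6, 72576377 to 72576436, minus strand, mm9) read 68.1, 38.6 and 209 intensity units, or levels of 0.39, 0.76 and 0.75. The genotype difference was -0.01 ± 0.23 and the age difference 0.37 ± 0.24, neither far from the spot SD. Their signs are not settled, since normexp background correction moved age to -0.01 with the same scaling and genotype to values between -0.36 and 0.36 with both scalings.

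Tcf7l2, a factor with many splice forms, gave opposite age differences by different probes. Probe 2, 1724 bases into its transcript and shown above, read 106.9 at P5, 97.6 at P7 and 158 in Runx2+/-, which scale to 1.04, 2.10 and 0.35. By that probe P7 was 1.06 ± 0.21 (2.09-fold) above P5, and Runx2+/- was 1.76 ± 0.21 (3.38-fold) below P7 wild type, or 0.43 above and 0.72 below under normexp with the 75th percentile. The P7 wild-type array stands above the other two. Probe 1 (chromosome 19, 55817272 to 55817331, plus strand, mm9), at 727 bases of another transcript form, read 121, 36.4 and 164, or 1.22, 0.68 and 0.40. By it P7 was 0.54 ± 0.24 below P5 and Runx2+/- was 0.27 ± 0.24 below P7 wild type. Probe 2 stands for the gene by the rule of highest mean, but probe 1 was the brighter at P5 and in Runx2+/-. The age and genotype values of probe 2 thus come from a probe chosen through the P7 wild-type array, where it was high, and are a description only. The probes differed by 1.61 log2 units for age and 1.48 for genotype, and by 0.12 for Runx2+/- against P5, the comparison without the P7 wild-type array. Probe 3, at 2644 bases, was above background on the Runx2+/- array alone, at 20.0, and gave no order. Its G and C share of 23.3% is higher than that of 0.449% of the probes on the array. The files name a different transcript for each of the 3 probes. Whether transcript forms or the P7 wild-type array differ was not tested.

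**Figure D2:**
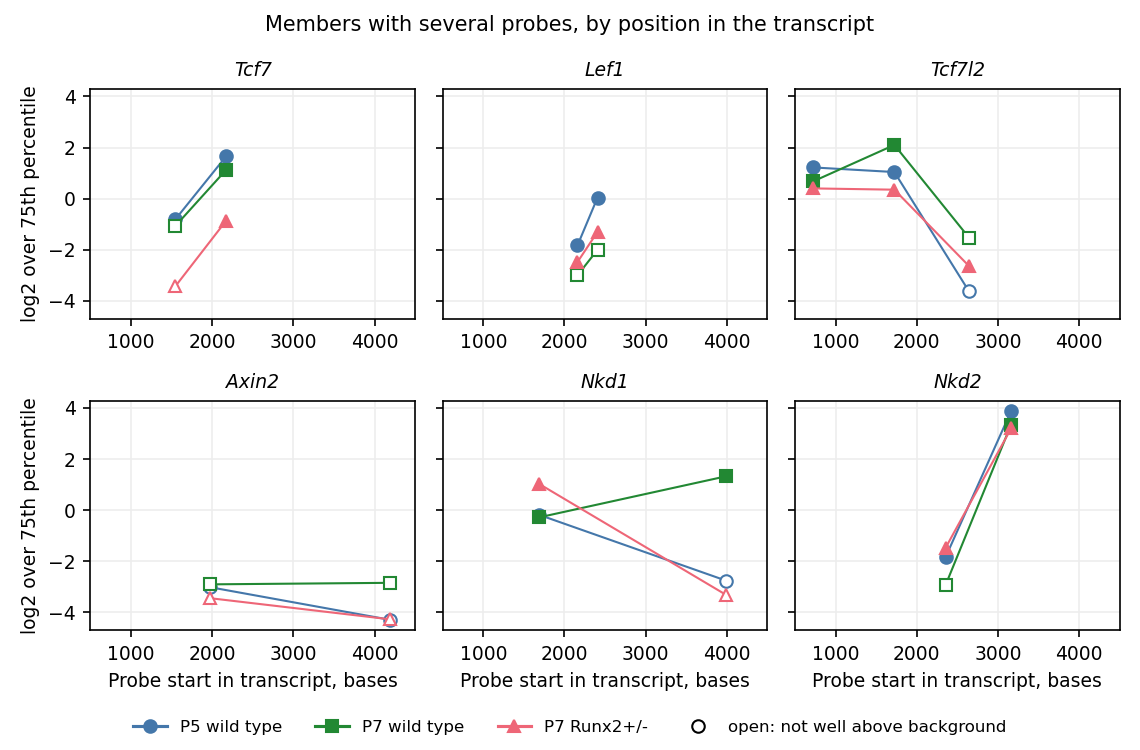
Level (log2 units over the array's 75th percentile) against the probe's start in its transcript (bases) for the 6 members with several probes, with open symbols not well above background and lines joining the probes of 1 array. For Tcf7l2 and Nkd1 the P7 wild-type line (squares) parts from the other arrays at 1 probe, at 1724 and 3995 bases.

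Ctnnb1, which encodes β-catenin, was somewhat higher on the Runx2+/- array than on both wild-type arrays. Its probe (chromosome 9, 120869274 to 120869333, plus strand, mm9) is printed in 2 spots per array, which read 473.3 and 447.7 at P5, 232.2 and 221.5 at P7, and 1945.3 and 1958.6 in Runx2+/-. Spots of 1 array agree closely, and after scaling the levels were 3.14, 3.32 and 3.97. Runx2+/- was 0.66 ± 0.20 (1.58-fold) above P7 wild type and 0.83 ± 0.20 above P5, and stayed above P7 wild type in all 11 other settings, from 0.55 to 1.69. Settings of probe choice and floor left the genotype difference at 0.66, so only other scalings, normexp and the authors' values moved it. The age difference of 0.17 ± 0.20 lies within the spot SD, and both normexp settings turned its sign, the lower to -0.45. The mRNA level does not measure the stability of β-catenin, which is where Wnt acts on it.

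Axin1, the constitutive scaffold of the destruction complex, was lowest at P5, higher at P7 and highest in Runx2+/-, the last step turning under 1 setting below. Its probe (chromosome 17, 26332106 to 26332165, plus strand, mm9) read 36.5, 27.4 and 209, or levels of -0.51, 0.27 and 0.75. P7 was 0.78 ± 0.30 (1.72-fold) above P5, and this stayed above 0 in all 11 other settings, down to 0.28. Settings of probe choice and floor left it at 0.78. For age this probe lies in the dimmest of the 8 brightness groups, whose median difference was 0.44. The genotype difference was 0.48 ± 0.27 (1.39-fold) and turned to -0.29 under normexp with median scaling. Runx2+/- was 1.26 ± 0.24 (2.39-fold) above P5, or 0.28 under that same setting.

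Axin2, the inducible scaffold whose transcript is widely used as a readout of Wnt activity, could not be read on these arrays. Probe 1, shown above, read 6.45, 3.05 and 11.5 intensity units and probe 2, at 4196 bases, read 2.67, 3.18 and 6.45. None of these 6 values was well above background, where the dimmest signal that was lay at 12, 13.3 and 13.1 on the 3 arrays. No direction is therefore given for Axin2 in any comparison, and its expression pattern was followed no further. Probe 2 has 20.0% G and C, with 0.151% of all probes lower, while probe 1 at 48.3% is above the median of 43.3%.

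Nkd1 and Nkd2 encode the Naked cuticle proteins, which bind Dishevelled and dampen the signal. Nkd1 probe 1 (chromosome 8, 91116160 to 91116219, plus strand, mm9) read 45.9 at P5, 18.7 at P7 and 253 in Runx2+/-, or levels of -0.18, -0.28 and 1.03. The wild-type arrays lie together and Runx2+/- above them, by 1.31 ± 0.31 (2.48-fold) over P7 wild type and 1.21 ± 0.22 (2.31-fold) over P5. The genotype difference stayed above 0 in 10 of 11 other settings, the exception being the use of the other probe, and was 0.15 under normexp with median scaling and 0.80 with the stricter filter. Nkd1 probe 2 (91118468 to 91118527 on the same strand), 3995 bases into the transcript, gave the opposite picture. It read 7.70 and 12.4 at P5 and in Runx2+/-, neither well above background, and 57.0 ± 6.44 at P7 wild type. By it P7 was at least 10.9-fold above P5 and Runx2+/- at least 23.8-fold below P7 wild type. Both probes belong to 1 transcript in the files, so the direction of Nkd1 depends on the probe, and which is right was not tested.

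Nkd2 was bright on each array. Its probe 2 (chromosome 13, 73956776 to 73956835, minus strand, mm9) read 766, 232 and 1145.8, or levels of 3.88, 3.35 and 3.20. P7 was 0.53 ± 0.21 (1.45-fold) below P5, with 10 of 10 other settings that gave an order on the same side. The genotype difference of -0.14 ± 0.21 lies within the spot SD and was above 0 in both normexp settings, up to 0.75. Probe 1 was dim, with 14.7, 3.03 (not well above background) and 45.1, and put Runx2+/- 0.36 ± 0.34 above P5, where probe 2 put it 0.68 ± 0.20 below. The level of Nkd2 differed little between the P7 arrays, and the direction against P5 depends on the probe.

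Apcdd1, a membrane inhibitor that binds Wnt and Lrp proteins, was near the limit of detection. Its 1 probe read 18.3 at P5, 6.06 (not well above background) at P7 and 24.6 in Runx2+/-. It gave no order for age or genotype, and Runx2+/- was 0.83 ± 0.36 (1.78-fold) below P5. In that comparison the probe lies in the dimmest brightness group, whose median difference was -0.68.

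Counted over the members by their brightest probes, 8 had an order for age. Of these, 1 (Tcf7l2) was at least 2-fold higher at P7 than at P5, by a probe chosen through its P7 wild-type signal and against its other measured probe, and 0 were at least 2-fold lower, where 6.32% of all genes with an order were higher and 3.29% lower. The member median was 0.04, beside 0.05 for all genes, with 4 members above and 4 below 0. For genotype, 7 members had an order. Nkd1 was at least 2-fold higher in Runx2+/-, and Tcf7 and Tcf7l2 were at least 2-fold lower, where 5.38% of all genes were higher and 13.2% lower. The median was -0.01, beside 0.15 for all genes. Of the 3 genotype calls, Nkd1 and Tcf7l2 rest on a probe that another probe of the gene contradicts in sign or size, and the other Tcf7 probe gave no order. The P7 wild-type array enters both comparisons, so a probe high or low on that array moves in opposite directions in them.

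The split of all genes depends on background correction. As given here, 850 genes were at least 2-fold higher and 442 lower for age, and 729 higher and 1791 lower for genotype. With normexp and the same scaling the split was 28 and 776 for age and 4063 and 470 for genotype. With normexp and median scaling it was 141 and 233 for age and 461 and 1912 for genotype.

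Set against the P5 array, which avoids the dim P7 wild-type array but differs in both age and genotype, the Runx2+/- array had an order for 9 members. Axin1 and Nkd1 were at least 2-fold higher and Tcf7 (2.52 ± 0.21 log2 units, 5.73-fold) and Lef1 were at least 2-fold lower, where 9.09% of all genes were higher and 14.7% lower. The member median was -0.68, beside 0.13 for all genes, and depends on the setting. It was -0.16 with the mean over probes, the stricter filter or the common floor, -0.17 under normexp with the 75th percentile and 0.36 with the probe nearest the 5′ end. Of the factors, Tcf7, Lef1 and Tcf7l2 were each lower in Runx2+/- than at P5 by every probe measured on both arrays, while Tcf7l1 was 0.37 ± 0.21 higher, or -0.08 under normexp with median scaling.

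**Figure D3:**
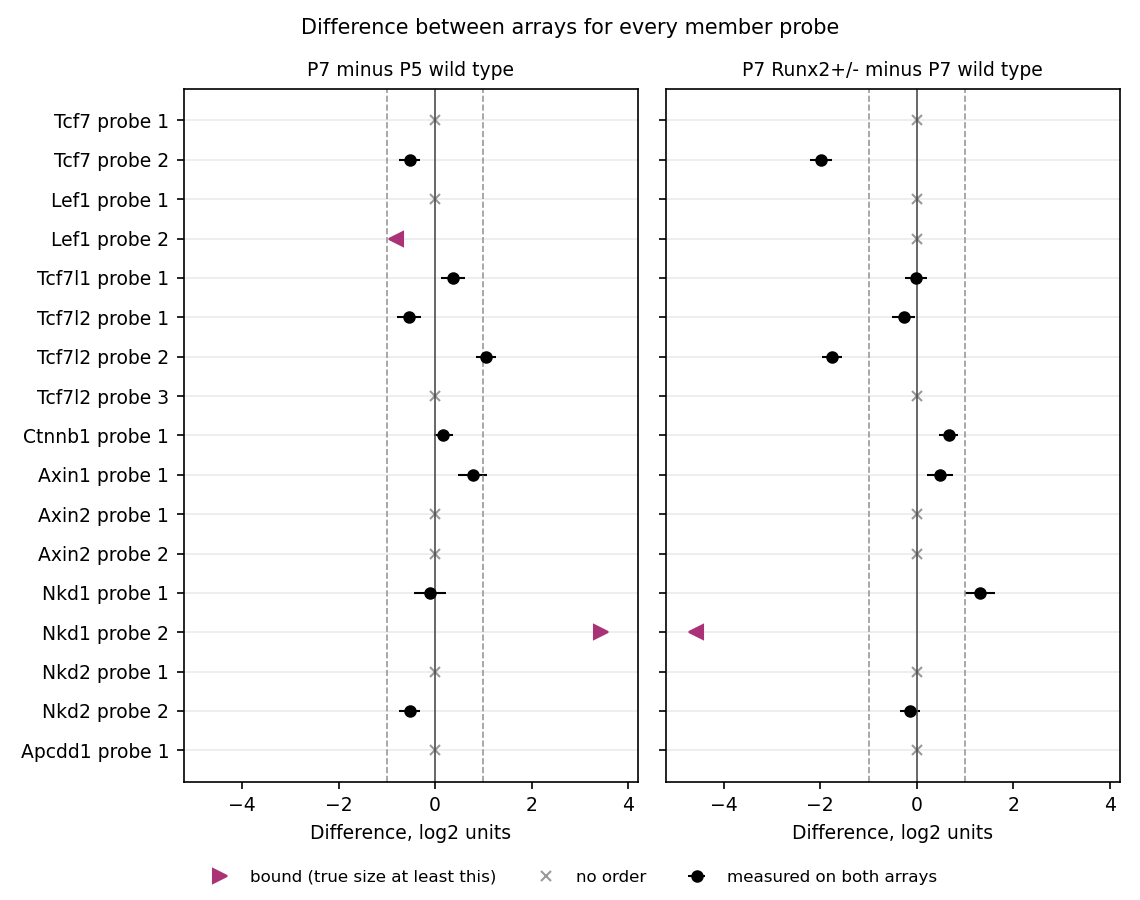
Difference between arrays (log2 units) for each of the 17 member probes, by age (P7 less P5, wild type) and by genotype (Runx2+/- less wild type, P7), with bars for the combined error of the 2 spots' signals, triangles for lower bounds pointing away from 0, and crosses at 0 where no order could be given. Dashed lines mark a 2-fold difference. Tcf7 probe 2 lies at -1.99 for genotype, and the Nkd1 probes lie on opposite sides of 0.

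Within transcripts that carry several probes, differences increased towards the 3′ end. The median slope was 0.18 log2 units per kb for age (1128 transcripts, 66.4% above 0), 0.13 for genotype (1134 transcripts, 62.2%) and 0.35 for Runx2+/- against P5 (1909 transcripts, 71.7%). Among member pairs of probes, taken in genome order, the difference was higher at the more 3′ probe for Tcf7l2 by age and lower there for Tcf7l2 by genotype. Against P5 it was lower at the more 3′ probe for Lef1 and Nkd2, and slightly higher there for Tcf7l2 (-0.69 beside -0.82). The Tcf7l2 and the Lef1 probes carry different transcript names in the files. The part of this slope in the member differences was not tested.

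**Figure D4:**
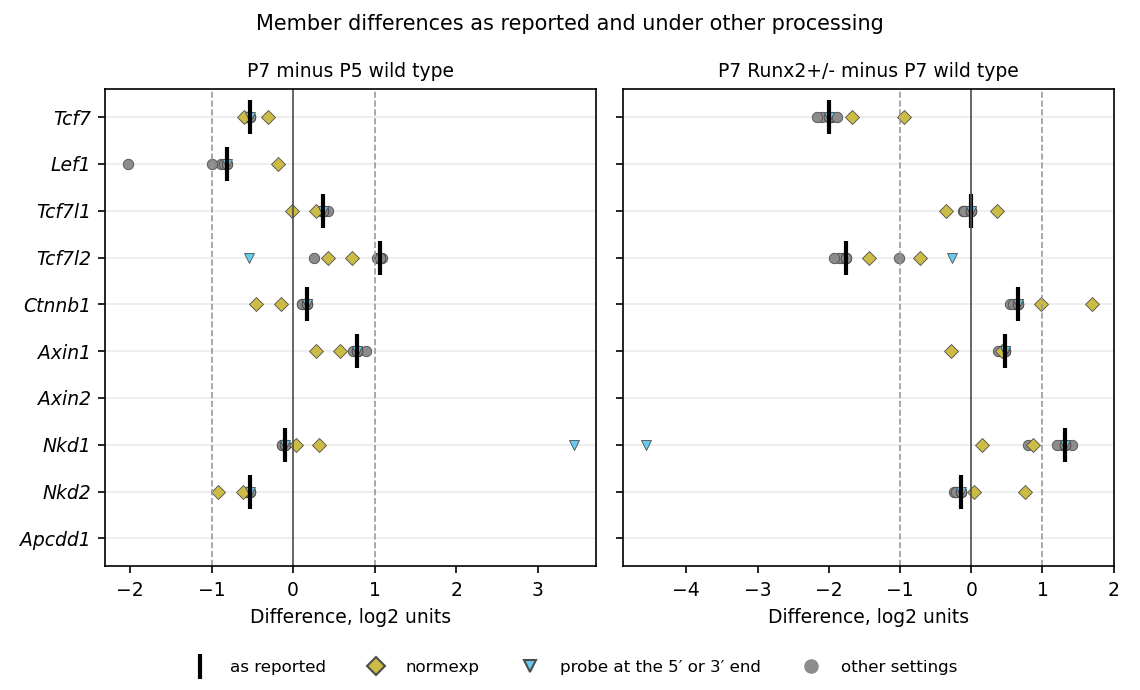
Difference (log2 units) of each member as reported (black bars) and under other processing, for age and genotype, with diamonds for normexp background correction, triangles for the probe nearest the 5′ or 3′ end and circles for other settings, bounds included. Dashed lines mark a 2-fold difference. Tcf7 stays left of 0 for genotype, the probe end moves Tcf7l2 for age to -0.54 and Nkd1 for genotype to -4.57. Axin2 and Apcdd1 have no value, and Lef1 has none for genotype.

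Among genes whose pattern over the 3 arrays was most like that of Tcf7, the nearest was an unnamed intergenic transcript, followed by Chrna9 and Pdzrn3. Likeness was the distance of the 3 log2 levels after each gene's mean was taken off, over 12037 genes measured on all 3 arrays, and was 0.018, 0.041 and 0.055. The pattern has 3 points only, and 51 genes lay within 0.25.

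Around the members, the rest of the machinery was mostly measured. Of 20 genes of the destruction complex and Dishevelled, 18 had an order for age, none was at least 2-fold apart, and the median was 0.15. Over all genes 6.32% were higher and 3.29% lower for age. For genotype the median of 18 was 0.07, with 1 gene higher and 2 lower, where 5.38% and 13.2% of all genes were. Dvl3, a Dishevelled, read 5378.4, 2829.8 and 3073.9 intensity units, or 6.69, 6.96 and 4.63, and was 2.33 log2 units lower in Runx2+/- than in P7 wild type. Apc, the second scaffold of the complex, was 1.13 lower by 1 of 2 probes, the other not being above background, and 0.40 lower with the common floor. For genotype that Apc probe lies in the dimmest brightness group, whose median difference was -0.70. Btrc, the F-box protein that recognises marked β-catenin, was at least 2.01-fold higher, a bound of 1.01 log2 units that was 0.01 with the stricter filter. Both Apc and Btrc were 2-fold apart in 6 of 11 other settings. The age median of the list was -0.38 under normexp background correction with the same scaling, and its genotype median was -0.03 under quantile normalization.

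Of 25 nuclear cofactors, 20 had an order for age with a median of 0.13 and none 2-fold apart. For genotype 21 had an order with a median of 0.13. None was 2-fold higher and 1 gene was 2-fold lower, where 5.38% and 13.2% of all genes were. That gene was Crebbp, an acetyltransferase that β-catenin recruits, at 6.81, 6.50 and 4.89 and 1.62 lower in Runx2+/- than in P7 wild type, or 0.35 lower under normexp with the 75th percentile. A second Crebbp probe was dim, with 5.73 intensity units on the P7 wild-type array, and gave no order there. The age median of this list was -0.50 under normexp with the 75th percentile.

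Among 30 other genes known as Wnt targets, 20 were measured at P5, 17 at P7 in wild type and 21 in Runx2+/-. For age, 17 had an order with a median of 0.35. Only Ephb3, an ephrin receptor, was at least 2-fold apart, 1.04 higher at P7, where 6.32% of all genes were higher. Ephb3 was 2-fold apart in 6 of 11 other settings, down to 0.25 under normexp with the 75th percentile. For genotype, 19 had an order with a median of -0.18, with 2 genes higher and 4 lower, where 5.38% and 13.2% of all genes were. Lgr5, a receptor for R-spondins, read 82.3, 38.0 and 1212.7, or 0.66, 0.74 and 3.29, and was 2.55 log2 units (5.84-fold) higher in Runx2+/- than in P7 wild type, with a range of 1.75 to 2.55 over 10 other settings. A second Lgr5 probe was not above background on any array. Wisp2, a matricellular protein, was at least 2.43-fold higher, a bound of 1.28 that was 0.28 with the stricter filter. Notum, an enzyme that inactivates Wnt proteins, was at 3.24, 4.16 and 2.0, and so 2.16 lower in Runx2+/- than in P7 wild type. Dkk1, which blocks the Wnt coreceptor, was 1.48 lower, Cd44, a hyaluronan receptor, 1.07 lower, and Twist1, a factor of suture mesenchyme, 1.0 lower. Notum, Dkk1 and Twist1 stayed below 0 in all 11 other settings, of which those of probe choice and floor left their values unchanged. Under normexp with the 75th percentile none of the 4 lower genes was 2-fold apart, with Notum at -0.97, Dkk1 at -0.69, Twist1 at -0.18, within the spot SD, and Cd44 at 0.00. That setting also turned the genotype median of the list to 0.39 and its age median to -0.02. Ccnd1 and Myc, long used as target genes, differed by less than 2-fold as reported, with genotype differences of 0.91 and -0.18. Ccnd1 passed 2-fold under normexp, at 1.84 with the 75th percentile and 1.13 with median scaling.

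**Figure D5:**
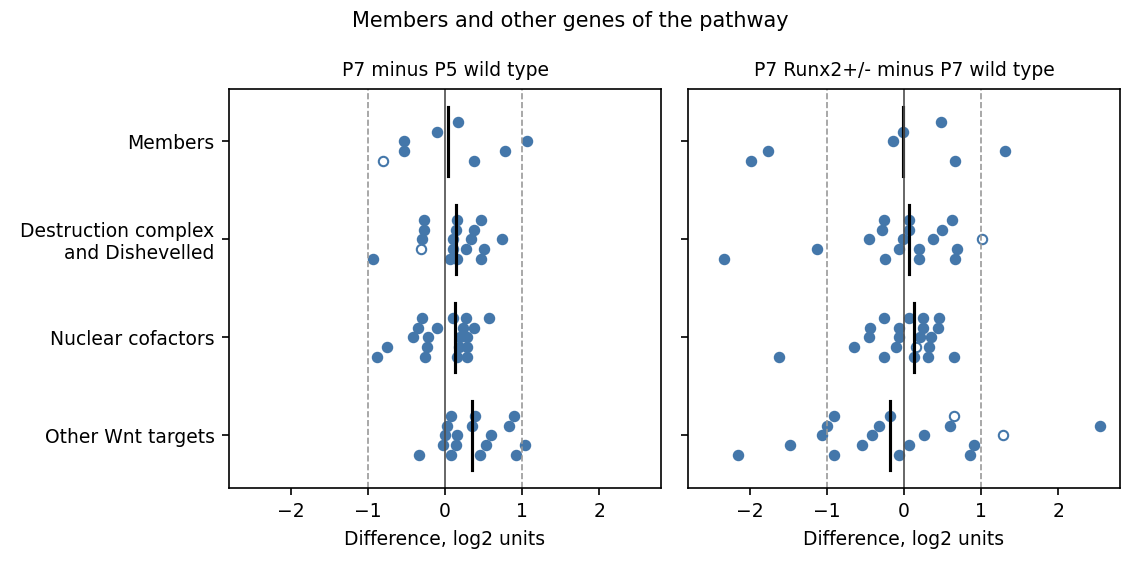
Difference (log2 units) of each gene with an order among the members, the destruction complex and Dishevelled, the nuclear cofactors and the other Wnt targets, for age and genotype, with open circles for bounds, black bars for medians and dashed lines at 2-fold. Medians lie between -0.18 and 0.35, and the signs of several turn with background correction.

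Markers of cell types differed between the arrays beside these values, and their part in them was not tested. A sum takes the brightest probe of every listed gene, whether or not it was well above background. Probes not above background thus add to it, and the lowest measured level differs between the arrays. The summed level of 8 osteoblast markers, all above background on each array, was 887 at P5, 1336.6 at P7 and 268 in Runx2+/- in units of the 75th percentile, with a genotype median of -1.94. The 8 suture mesenchyme markers summed to 64.9, 93.5 and 73.1, with 7, 6 and 7 above background and En1 on no array. Tissue markers were thus present on each array. The osteoblast sum and Tcf7 were both lowest on the Runx2+/- array. Between the wild-type arrays they parted, the sum being higher at P7 and Tcf7 lower there (1.12 beside 1.65 at P5).

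Of 12 T cell markers, looked at because Tcf7 and Lef1 are abundant in T cells, 4, 2 and 6 were above background and the sums were 10.8, 11.0 and 5.92. The defining genes Cd3d, Cd3g, Cd8a and Cd8b1 were not above background on any array, while Cd3e was at 1.76, 1.53 and 0.54 and Cd4 at 2.49, 2.51 and 1.35. Against P7 wild type, Runx2+/- was 0.98 lower for Cd3e and 1.16 lower for Cd4, whose second probe was above background on no array. Lck went the other way, at least 1.48-fold higher, and Cd2 and Rag1 were above background in Runx2+/- alone. The list thus did not move as 1 group. The 10 B cell precursor markers, with 7, 4 and 7 above background and Pax5 on none, summed to 12.6, 10 and 15.6.

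The 8 neutrophil markers summed to 883, 74.9 and 348, with 8, 7 and 8 above background, lowest on the P7 wild-type array. The 7 markers of epidermis and hair follicle, where Tcf7l1, Lef1 and Apcdd1 are also expressed, summed to 62.0, 51.7 and 16.6, with 5, 1 and 3 above background and Krt14 on none. The 10 neural and glial markers summed to 284, 256 and 68.1, with 9, 6 and 7 above background and Olig2 on none. The 8 endothelial markers summed to 141, 136 and 229, with 8, 7 and 8 above background. The 7 leptomeningeal markers summed to 97.2, 64.2 and 35.4, with 7, 5 and 6 above background. The epidermal, neural and leptomeningeal sums were lowest on the Runx2+/- array, but none of these lists moved as 1 group. Trp63, at 5.84, 5.66 and 3.94, and Snap25, at 8.06, 7.96 and 5.92, were the highest genes of the epidermal and neural lists. For genotype, 1 epidermal gene lay above 0 and 1 below, 4 neural above and 3 below, and 2 leptomeningeal above and 3 below.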

How the data were processed

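Images were quantified by Agilent Feature Extraction (10.7.1.1 in the file headers, 9.5.1.1 in the submitters' processing notes). Per the file headers, the deposited signal is a linear intensity after background correction, given with an error and flags. RNA was extracted with ISOGEN and amplified with a Low input Quick Amp kit, per the labels' protocols. A deposited table of the authors' processed intensity served as an alternative only.

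Control and outlier spots were left out, spots of a probe averaged on the log2 scale, and each array's 75th percentile subtracted. The brightest probe stood for a gene. Differences need a signal well above background on each array of the pair. With it on 1 array, a bound was taken against the higher of the other array's lowest such signal and the probe's own value, and kept if the measured array was the higher. Other cases have no order. At least 2-fold was counted. Steps were tested on simulated arrays with a shared profile and a shared floor. That does not check bounds or dim probes where floors differ, as they do here. The software was Python 3.11.15, pandas 2.3.3 and limma 3.58.1 (normexp, offset 50). Names and mm9 positions are those of the array files, and exons were not looked up.

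The members and the 12 lists (153 genes, all matched) were chosen with earlier results of these data known. Named are all members, the 3 genes most like Tcf7 (the same was set for Axin2, which gave none), Runx2, and genes of the 3 pathway lists at least 2-fold apart for age or genotype. Ccnd1, Myc, Trp63, Snap25 and the T cell markers with values were added after their values were seen. Other markers are given as list sums. All arrays lay on 1 slide, so no batch could be tested.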

Additional observations from a re-analysis of the deposited data

How the results depend on the processing

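The number of arrays and the dim P7 wild-type array limit all values. No paired analysis was possible because each group has 1 array, and none could be left out. Of 13 other settings, 2 were chosen after seeing the data (a common floor and the probe nearest the 5′ end). For a gene with 1 probe, settings of probe choice return the reported value. Settings of the floor do so for a bright gene. Counts of settings that keep a sign include these. The causes of the moves below were not tested.

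The count of members at least 2-fold higher at P7 than at P5 (1 as reported) was 0 with either normexp setting, with the mean over probes, with the 5′ probe and at 3-fold, and 2 at 1.5-fold. The count lower (0) was 1 with the authors' values, with no floor and at 1.5-fold. The count higher for genotype (1) was 0 with normexp and median scaling, with the 3′ probe, with the stricter filter and at 3-fold, and 2 at 1.5-fold. The count lower (2) was 0 with normexp and the 75th percentile and with the 5′ probe. The genotype median of the members (-0.01) was 0.43 with normexp and the 75th percentile, -0.29 with normexp and median scaling and 0.48 with the 5′ probe. Of named differences of at least 2-fold, those that lost their sign were Tcf7l2 for age with the 5′ probe (-0.54), Nkd1 for genotype with the 3′ probe (a bound of -4.57), Cd44 for genotype with normexp and the 75th percentile (0.00, no difference) and Runx2 in Runx2+/- against P5 with the 3′ probe (a bound of 0.74). Smaller differences also changed sign, among them, under normexp, those of Tcf7l1, Axin1, Ctnnb1, Nkd1, Nkd2 and Runx2 and, with the 5′ probe, that of Nkd2 against P5 (0.36). With no floor, the split of all genes was 12133 higher and 1372 lower for age and 1672 and 14762 for genotype, and the median of all genes moved by 0.40 and -0.86.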
